A study of Mus musculus with 3 samples.

Results

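The collagens followed here were the genes of the non-fibrillar types IV, VI, IX and XIX in mouse mitral valve. They were chosen by name: Col6a3, Col4a3, Col4a4, Col9a1, Col9a3 and Col19a1, which are 6 of the 3264 genes with a value in every one of 16383 cells. The listed genes lie on 3 chromosomes, 1 to 3, so other chains of the same collagen types were not analysed here. The 3 labelled samples (B6.129-Fbn1tm2Rmz/J mice1 to mice3) are mitral valves of mgR/mgR mice, which are homozygous for a hypomorphic allele of Fbn1, the gene of fibrillin-1, through an inserted neo cassette. The sequenced mice were 12 weeks old, and the study also profiled wild-type and rapamycin-treated mgR valves, and nuclei as well as cells. The matrix pools libraries, and its barcodes name no mouse, genotype, treatment or library. No cell could be traced to 1 of the samples, the matrix was treated as 1 sample, no test between samples was possible, and a cell below means 1 barcode, whichever kind it was.

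Collagens of these types do not form the thick banded fibrils of tendon and skin. Type IV chains assemble into the meshwork of basement membranes, and the chains of Col4a3 and Col4a4 join with that of Col4a5 in one trimer, best known from the kidney filter, where its loss causes Alport syndrome. Type VI collagen forms beaded filaments close to cells, with the Col6a3 chain as its longest. Type IX collagen sits on the surface of type II collagen fibrils in cartilage and joins the chains of Col9a1, Col9a2 and Col9a3, and type XIX collagen is a related, sparse collagen of basement membrane zones.

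Col4a3 and Col4a4 start head to head, and the stretch between their annotated starts is shown because both genes were read in the same cells. In GRCm38 with the GENCODE M21 annotation, Col4a4 spans chr1:82448423-82586849 on the minus strand and Col4a3 spans chr1:82586921-82722059 on the plus strand. The intergenic stretch of 71 bases, chr1:82586850-82586920, is printed on the strand of Col4a4, from the side of Col4a3 to that of Col4a4, with each CG in capitals.

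Col4a3 to Col4a4: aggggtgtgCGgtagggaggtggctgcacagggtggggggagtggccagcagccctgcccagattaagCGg

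The stretch is 69.0% G or C and holds 2 CG. In as many bases before the starts of 32851 entries in RefSeq's promoter table (GRCm38.p6), the median was 2 CG, and 55.4% of windows held at least as many. On either strand it holds no TATA box, searched as TATAAA and present in 4.41% of those windows. It likewise holds no CCAAT box, whose name gives the letters searched (13.3% of windows), and no GC box, searched as GGGCGG (20.7%), which says only that these letters are not in this stretch.

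Col6a3 lies at chr1:90765923-90843971 on the minus strand and Col9a1 at chr1:24177610-24252684 on the plus strand. Col19a1 lies next to Col9a1, at chr1:24261890-24587472 on the minus strand, so the pair point at each other with their 3′ ends. Col9a3 lies at chr2:180597790-180622189 on the plus strand, and its 3′ end overlaps that of Tcfl5, which had 7 UMIs in all. C430014B12Rik, with 458 UMIs, overlaps the end of Col4a3 on the other strand. Whether counting used strand is not given in the sources used here, so reads of these overlaps cannot be assigned with certainty.

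Cells were sorted by unique molecular identifiers (UMIs, 1 for each captured transcript) of marker genes. Fibroblasts had UMIs of at least 2 of the 3 genes Prrx1 (a mesenchymal transcription factor), Col3a1 (fibrillar collagen III) and Dpt (the matrix protein dermatopontin) and none of Egfl7, a gene of endothelial cells. Endothelial cells had Egfl7 and fewer than 2 of those, Ptprc cells carried the leukocyte gene Ptprc, and melanocytes had at least 2 of Mlph, Pax3 and Slc24a5. These rules gave 3051 fibroblasts with a median of 6007 UMIs a cell, 8787 endothelial cells with 5341, 485 Ptprc cells with 4902 and 96 melanocytes with 4117. A further 279 cells met more than 1 rule, 403 had fibroblast genes together with Egfl7 and 3282 met no rule. Genes outside the rules were checked against the labels: all 4 other fibroblast markers were at least 2-fold higher in fibroblasts than in endothelial cells, all 10 other leukocyte markers were higher in Ptprc cells than in fibroblasts, and 9 of 10 other endothelial markers were higher in endothelial cells. The exception, the transcription factor gene Mecom, was at 32.2 UMIs per 10000 in fibroblasts and 6.21 in endothelial cells, which goes against its place on the endothelial list. The melanocyte class rests on its rule genes alone.

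The barcodes stand in 2 alphabetical runs, of 14222 and 2161 cells, with 11 barcodes in both runs, and with a median of 5154 and 6918 UMIs. Labels do not say what a run is, and values within each run are given beside the pooled ones. A level is the sum of UMIs of a gene over the cells of a class, per 10000 UMIs of those cells, with a 95% exact Poisson interval in brackets. All intervals cover counting error only, and not the spread between mice. Levels are compared between classes for 1 gene, never between genes, since no length enters the scale.

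The 6 genes fell into separate patterns. Col6a3 and Col9a1 were highest in fibroblasts, and Col4a3 and Col4a4 were highest in endothelial cells with a lower level in fibroblasts. Col9a3 and Col19a1 had few UMIs, 140 and 6 over all cells. Over both runs the highest level of Col9a3 was in Ptprc cells, from 12 UMIs, 11 of them in the first run. In fibroblasts against endothelial cells, 20.2% of 2797 genes with at least 20 UMIs were at least 2-fold higher in fibroblasts and 16% at least 2-fold higher in endothelial cells. Of the 5 members with that many UMIs, 2 were at least 2-fold higher in fibroblasts and 1, Col4a4, at least 2-fold higher in endothelial cells. The median log2 ratio was 0.50 over these members and 0.06 over all genes tested. That 0.50 is the value of Col9a3, from 31 UMIs in fibroblasts and 57 in endothelial cells, so it describes no common direction of the members.

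**Figure D1:**
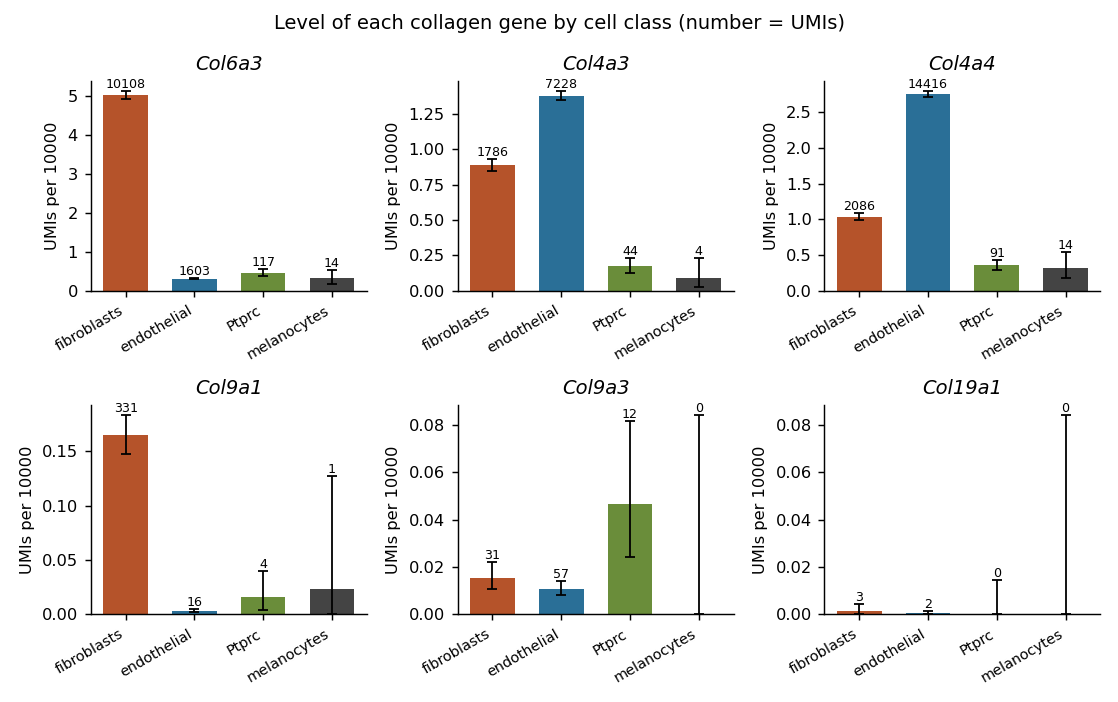
Level of each gene, in UMIs per 10000 UMIs on the y axis (each panel has its own scale), in the 4 cell classes on the x axis. Bars are summed levels, whiskers 95% exact Poisson intervals, and the number over each bar is its UMI count. Col6a3 and Col9a1 stand highest in fibroblasts (5.03 and 0.165), Col4a3 and Col4a4 in endothelial cells (1.38 and 2.75).

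**Figure D2:**
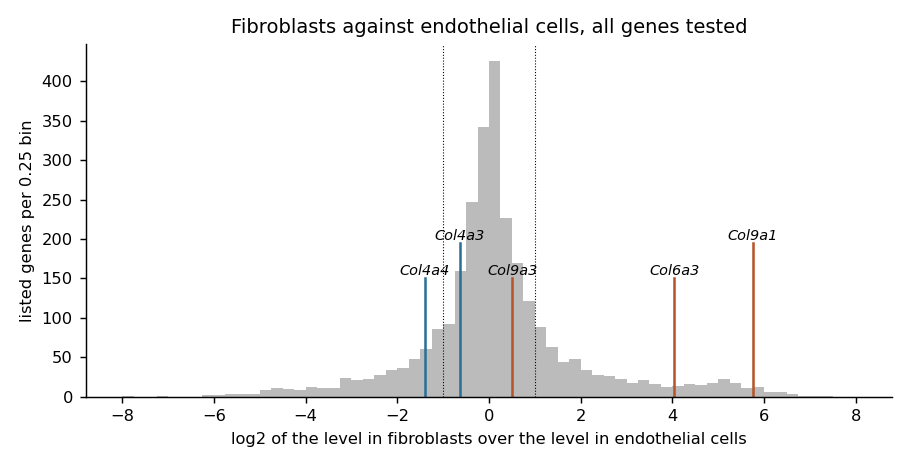
Number of listed genes (y axis) by the log2 ratio of the level in fibroblasts over that in endothelial cells (x axis, 0.25 per bin), for 2797 genes. Vertical lines mark the 5 collagens tested and dotted lines a 2-fold difference. Col9a1 and Col6a3 lie in the right tail, at 5.75 and 4.04, Col4a4 lies to the left at −1.41, and Col4a3 and Col9a3 lie inside the dotted lines.

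Col6a3 was the gene of the set with the clearest fibroblast level. It stood at 5.03 UMIs per 10000 in fibroblasts (4.93 to 5.13), from 10108 UMIs, against 0.306 in endothelial cells (0.291 to 0.321), a ratio of 16.5 (15.6 to 17.4). Of the 2797 genes tested, 142 had a higher ratio. The level was 0.455 in Ptprc cells (0.376 to 0.545) and 0.320 in melanocytes (0.175 to 0.537). Fibroblasts stood apart from the other 3 classes, and the interval of melanocytes overlapped those of both endothelial cells and Ptprc cells.

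Shares of cells were compared at a depth of 2000 UMIs drawn from each cell, so that cells with fewer were set aside (92 fibroblasts, 558 endothelial cells, 53 Ptprc cells and 10 melanocytes). At that depth 55.7% of fibroblasts had a Col6a3 UMI (53.9 to 57.5, exact binomial), 4.91% of endothelial cells, 5.09% of Ptprc cells and 5.81% of melanocytes. The share of endothelial cells as a whole was not above those of Ptprc cells and melanocytes. That share was uneven between kinds of endothelial cell, which are described after the fibroblasts. Without thinning, 1423 of the fibroblasts had at least 3 Col6a3 UMIs, against 183 of the endothelial cells.

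In the second barcode run the Col6a3 level of fibroblasts was 2.63 (2.42 to 2.87), and in the first it was 5.30 (5.19 to 5.41), a ratio of 2.01 (1.84 to 2.20). In fibroblasts, 7.35% of 2449 genes were at least 2-fold higher in the first run. The fibrillar collagen genes Col3a1 and Col5a1 went the same way, with ratios of 1.75 (1.62 to 1.90) and 1.76 (1.60 to 1.94), and Col5a2 had a smaller one of 1.35 (1.28 to 1.42), while Col4a3 had a ratio of 1.02 (0.870 to 1.19) and Col4a4 of 0.822 (0.720 to 0.942). The gap between classes was present in both runs, with 16.1-fold (15.2 to 17.1) for the first and 12.6-fold (10.8 to 14.9) for the second. What sets the runs apart was not tested, and mouse, genotype, treatment and chemistry cannot be told apart in it.

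**Figure D3:**
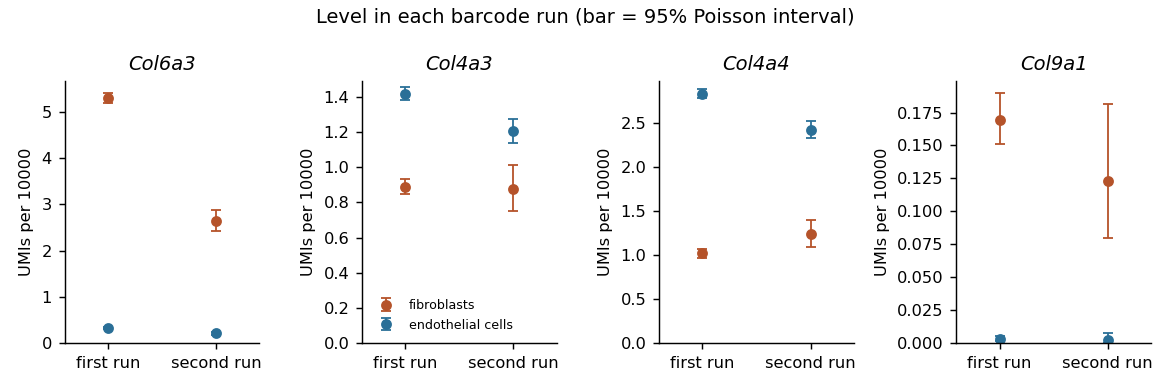
Level in UMIs per 10000 (y axis) of Col6a3, Col4a3, Col4a4 and Col9a1 in fibroblasts and endothelial cells, in each barcode run (x axis), with 95% exact Poisson intervals. The order of the classes is the same in both runs for each of the 4 genes, and the Col6a3 level of fibroblasts is 5.30 on the left and 2.63 on the right.

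Col4a4 was highest in endothelial cells. Its level there was 2.75 (2.71 to 2.80), from 14416 UMIs, and it was 1.04 in fibroblasts (0.994 to 1.08), so that endothelial cells were 2.65-fold higher (2.53 to 2.78). Ptprc cells stood at 0.354 (0.285 to 0.434) and melanocytes at 0.320 (0.175 to 0.537). Both are below fibroblasts, whose level was 2.94-fold that of Ptprc cells (2.38 to 3.66), a comparison in which 22.6% of 2604 genes were at least 2-fold higher in fibroblasts. After thinning, 34.9% of endothelial cells (33.9 to 35.9), 15.9% of fibroblasts (14.6 to 17.3), 3.01% of Ptprc cells and 3.49% of melanocytes had a Col4a4 UMI.

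Col4a3, its partner in the trimer, had the same order of classes with a smaller gap. The level was 1.38 in endothelial cells (1.35 to 1.41), 0.889 in fibroblasts (0.848 to 0.931), 0.171 in Ptprc cells (0.124 to 0.230) and 0.0914 in melanocytes (0.0249 to 0.234). Endothelial cells were 1.55-fold above fibroblasts (1.47 to 1.64), under 2-fold, and fibroblasts were 5.20-fold above Ptprc cells (3.86 to 7.18). The share of thinned cells with a Col4a3 UMI was 19.3% in endothelial cells (18.5 to 20.2), 13.9% in fibroblasts (12.6 to 15.2) and 2.55% in Ptprc cells.

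The pair did not keep 1 proportion. There were 0.856 UMIs of Col4a3 for each UMI of Col4a4 in fibroblasts (0.803 to 0.913) and 0.501 in endothelial cells (0.487 to 0.516), intervals that do not overlap. In the first run these were 0.876 (0.819 to 0.938) and 0.502 (0.487 to 0.518), and in the second 0.709 (0.582 to 0.863) and 0.498 (0.464 to 0.534). In fibroblasts with Prg4 or Fmod the proportion was 1.09 (0.984 to 1.21), over both runs the highest of the 12 subclasses described next. In the second run alone it was 0.839 (0.569 to 1.23) there. The 2 classes were not apart in every subclass. Fibroblasts with Scn7a or Sfrp2 were at 0.650 (0.574 to 0.736), and endothelial cells with Selp or Fabp4 at 0.607 (0.555 to 0.663), with intervals that overlap.

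A Col4a4 UMI was more frequent in cells that also had a Col4a3 UMI. Among thinned endothelial cells with a Col4a3 UMI, 55.9% had a Col4a4 UMI (53.5 to 58.4), against 29.9% of those without (28.8 to 31.0). Among fibroblasts these shares were 27.1% (22.8 to 31.7) and 14.1% (12.8 to 15.5). Inside the subclasses the ratio of the shares ran from 1.46 in fibroblasts with Scn7a or Sfrp2 to 2.23 in endothelial cells with Tmem163 or Kcnh1. In Scn7a/Sfrp2 fibroblasts the thinned shares were 36.5% (26.9 to 46.9) with and 24.9% (20.7 to 29.6) without Col4a3, and in Prg4/Fmod fibroblasts 15.5% (10.5 to 21.8) and 10.2% (8.65 to 11.9), with intervals that overlap. Without thinning, which leaves cells of unequal depth, the intervals lay apart in both, at 74.1% (67.0 to 80.5) against 41.4% (35.9 to 47.1) and at 37.2% (32.2 to 42.4) against 19.7% (17.5 to 22.0). In the 3 endothelial subclasses the thinned intervals lay apart. Classes and subclasses mix cells with unlike levels of both genes, as the clusters described below show. The part of this mixture in the shares was not tested.

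**Figure D4:**
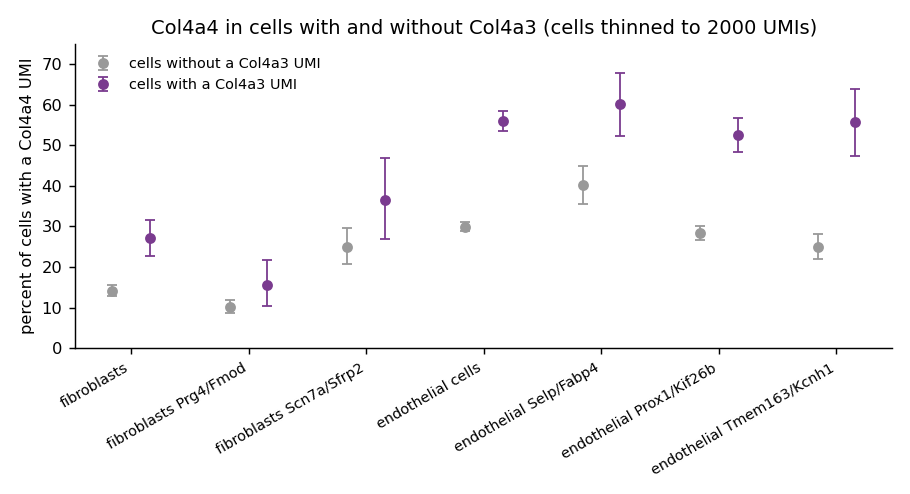
Percent of cells with a Col4a4 UMI (y axis) among cells with and without a Col4a3 UMI, in 2 classes and 5 subclasses (x axis), with every cell thinned to 2000 UMIs and 95% exact binomial intervals. Cells with Col4a3 lie above those without in each group, and the intervals overlap in the 2 fibroblast subclasses.

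Col9a1 was a fibroblast gene at a low level. It stood at 0.165 UMIs per 10000 in fibroblasts (0.148 to 0.184), from 331 UMIs, and at 0.00305 in endothelial cells (0.00175 to 0.00496), from 16 UMIs, a ratio of 54.0 (32.7 to 95.5). Of 2797 genes tested, 30 had a higher ratio. Ptprc cells had 4 UMIs, a level of 0.0155 (0.00424 to 0.0398), and melanocytes had 1. After thinning, 2.81% of fibroblasts (2.24 to 3.47), 0.0608% of endothelial cells (0.0197 to 0.142) and 0.463% of Ptprc cells (0.0561 to 1.66) had a Col9a1 UMI, so fibroblasts were above the share of leukocytes. Most of the 223 fibroblasts in which it was found unthinned had 1 UMI, 153 in all, and 24 had at least 3. Taken alone, the first run gave a ratio of 51.3 (30.1 to 95) and the second one of 61.7 (15.4 to 537), where 25 UMIs stood against 2.

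Col9a3, the other type IX chain in the matrix, did not follow Col9a1. It had 140 UMIs in all. Fibroblasts had 31, a level of 0.0154 (0.0105 to 0.0219), endothelial cells 57, a level of 0.0109 (0.00824 to 0.0141), Ptprc cells 12, a level of 0.0467 (0.0241 to 0.0815), and melanocytes 0. The interval of the ratio of fibroblasts over endothelial cells, 1.42 (0.885 to 2.24), spans 1. By run this ratio was 1.15 (0.675 to 1.91) and, from 7 and 8 UMIs, 4.32 (1.33 to 13.6). Thinned shares were 0.541% in fibroblasts (0.309 to 0.877), 0.267% in endothelial cells and 0.694% in Ptprc cells (0.143 to 2.02). Neither share was above that of Ptprc cells, which rests on 3 of 432 cells. The Ptprc level was 3.02-fold that of fibroblasts (1.41 to 6.06). By run this ratio was 4.60 (2.04 to 9.76) and, from 1 and 7 UMIs, 0.375 (0.00832 to 2.92), the latter with an interval that spans 1. No expression is read from the fibroblast and endothelial values.

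No cell of either class held both type IX chains. Of the 223 fibroblasts with Col9a1, 0 had a Col9a3 UMI, and of the 28 fibroblasts with Col9a3, 0 had Col9a1, where 7.38% of the fibroblasts without Col9a3 had it. A count of 0 of 28 allows a share of up to 10.7% (3 counts), above the 7.38% in the other fibroblasts.

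Col19a1 had 6 UMIs in 5 of 16383 cells: 3 UMIs in fibroblasts, 2 in endothelial cells and 1 in cells meeting no rule. Both classes were at or under the floor of 3 UMIs, a level of 0.00149 in fibroblasts and 0.000572 in endothelial cells, so no ratio is given.

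Fibroblasts and endothelial cells were then divided by genes that lead subgroups of them in these data. Fibroblasts with Prg4 or Fmod, the genes of lubricin and fibromodulin, numbered 1593, and those with Scn7a or Sfrp2 numbered 488. A further 336 fibroblasts had genes of both kinds and 634 of neither.

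Of the 5 members with a ratio, Col9a1 differed most between the 2 kinds of fibroblast. Its level was 0.241 (0.212 to 0.272) in Prg4/Fmod fibroblasts, from 257 UMIs, and 0.0150 (0.00488 to 0.0351) in Scn7a/Sfrp2 fibroblasts, from 5 UMIs, a ratio of 16 (6.77 to 49.7). In that comparison 7.4% of 2350 genes were at least 2-fold higher in Prg4/Fmod fibroblasts, and Col9a1 was the sole member among them. Prg4/Fmod fibroblasts held 77.6% of the Col9a1 UMIs of fibroblasts and 53.1% of all fibroblast UMIs. Fibroblasts with neither kind of gene were in between, at 0.153 (0.115 to 0.199), and those with both were at 0.0587 (0.0329 to 0.0968). In the second run the counts were 17 and 0 UMIs.

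Type IV genes went the other way between the same fibroblasts. Col4a4 was at 0.645 (0.598 to 0.696) in Prg4/Fmod and at 1.96 (1.81 to 2.12) in Scn7a/Sfrp2 fibroblasts, 3.04-fold higher in the latter (2.72 to 3.38). Of all genes, 6.72% were at least 2-fold higher there, and Col4a4 was the sole member among them. Col4a3 was 1.80-fold higher in Scn7a/Sfrp2 fibroblasts (1.60 to 2.04), at 1.27 against 0.705. Both directions held in each run, at 3.06-fold and 2.61-fold for Col4a4. Col6a3 differed least, at 5.28 (5.14 to 5.41) in Prg4/Fmod and 4.32 (4.10 to 4.55) in Scn7a/Sfrp2 fibroblasts, a ratio of 1.22 (1.15 to 1.29).

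**Figure D5:**
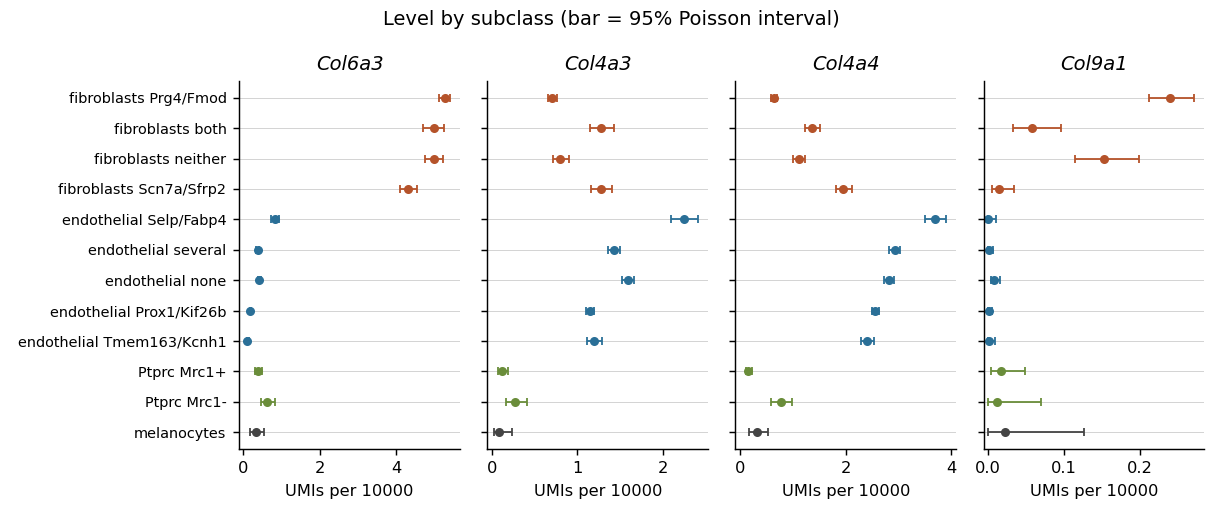
Level in UMIs per 10000 (x axis, each panel with its own scale) of Col6a3, Col4a3, Col4a4 and Col9a1 in 12 subclasses (y axis) of fibroblasts, endothelial cells, Ptprc cells and melanocytes, with 95% exact Poisson intervals. Col9a1 is highest in Prg4/Fmod fibroblasts (0.241), and Col4a4 and Col4a3 are highest in Selp/Fabp4 endothelial cells (3.70 and 2.24).

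Endothelial cells were divided into 3486 with Prox1 or Kif26b, 943 with Tmem163 or Kcnh1, and 624 with Selp or Fabp4, the genes of the adhesion molecule P-selectin and of a fatty acid carrier, while 1521 had genes of several kinds and 2213 of none. Col4a4 was highest in Selp/Fabp4 cells, at 3.70 (3.50 to 3.90), against 2.56 (2.49 to 2.63) in Prox1/Kif26b and 2.41 (2.29 to 2.54) in Tmem163/Kcnh1 cells, the last 2 with intervals that overlap. Col4a3 had the same high point, at 2.24 (2.09 to 2.41), against 1.15 (1.10 to 1.20) and 1.19 (1.11 to 1.28). Over both runs neither gene reached 2-fold between these subclasses. Col4a3 was near it, at 1.95-fold (1.80 to 2.12) in Selp/Fabp4 over Prox1/Kif26b cells, and 2.27-fold (1.87 to 2.74) in the second run. The Tmem163/Kcnh1 subclass mixes cells with unlike levels, as the clusters given next show.

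Col6a3 did. It was at 0.824 (0.733 to 0.924) in Selp/Fabp4 cells, 0.181 (0.163 to 0.200) in Prox1/Kif26b cells and 0.103 (0.0790 to 0.132) in Tmem163/Kcnh1 cells, ratios of 4.56 (3.90 to 5.32) and 8.02 (6.09 to 10.7). In the first of these comparisons 6.83% of 2388 genes were at least 2-fold higher in Selp/Fabp4 cells, in the second 5.63% of 2112. Unlike endothelial cells as a whole, Selp/Fabp4 cells had a higher level than Ptprc cells (0.455) and a thinned share of 13.9% (11.2 to 16.9) against 5.09%. The 4 fibroblast markers outside the rules summed to 5.61 in Selp/Fabp4, 4.04 in Prox1/Kif26b and 5.96 in Tmem163/Kcnh1 cells. Selp/Fabp4 cells were not the highest for them. With Prrx1, Col3a1 and Dpt added, of which the endothelial rule allows fewer than 2 in a cell, the sums were 7.54, 4.58 and 6.22. Selp/Fabp4 cells were then the highest. The part of these markers in the Col6a3 difference was not tested. In both runs Selp/Fabp4 cells were above Prox1/Kif26b cells, at 3.72-fold (3.14 to 4.39) and 12.6-fold (7.95 to 20.1).

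Clusters of cells made without any collagen gene gave a finer view of the same genes. Of 12 clusters, 6 were sorted as endothelial by Egfl7. Col6a3 was at 1.003 (0.947 to 1.06) in the cluster of 2247 cells whose leading genes include Selp and Fabp4, and between 0.0185 and 0.0887 in the other 5. Cells of that cluster had a Col3a1 UMI in 44.8% and a Prrx1 UMI in 2.72%, against at most 9.43% and 1.10% in the other 5 endothelial clusters, and the part of this in the Col6a3 level was not tested. Col4a4 ran from 4.52 (4.40 to 4.64) in that cluster, through 3.70 (3.56 to 3.83) in 1259 cells led by Duox2 and Kcnh1 and 1.21 (1.16 to 1.26) in 2936 cells led by Tmem163, to 0.511 (0.446 to 0.583) in 454 cells led by Map1lc3a and Ptma. Col4a3 had the same order in these 4 clusters, at 2.51 (2.43 to 2.61), 1.87 (1.78 to 1.97), 0.515 (0.482 to 0.549) and 0.194 (0.155 to 0.240). Kcnh1 and Tmem163, which define 1 subclass above, thus led clusters with unlike levels of both genes. The cells led by Map1lc3a had a median of 9624 UMIs and genes of ribosomal proteins among their leading genes, and the part of this in their low level was not tested. The 2 fibroblast clusters repeated the split seen with marker genes: Col9a1 was at 0.197 in 3906 cells whose leading genes include Prg4 and at 0.0257 in 914 cells led by Scn7a, where Col4a4 was at 0.801 and 1.98.

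Ptprc cells were divided by Mrc1, the mannose receptor gene of many tissue macrophages. Col4a4 was at 0.773 (0.593 to 0.991) in 174 Mrc1- cells and 0.164 (0.110 to 0.235) in 311 Mrc1+ cells, from 62 and 29 UMIs, a ratio of 4.72 (2.99 to 7.61). In that comparison 14% of 1819 genes were at least 2-fold higher in Mrc1- cells. At 2000 UMIs a cell, 8 of 140 Mrc1- cells had a Col4a4 UMI, 5.71% (2.50 to 10.95). Of 292 Mrc1+ cells 5 had one, 1.71% (0.558 to 3.95), and these intervals overlap. Endothelial markers outside the rules, 9 genes without Mecom, summed to 3.26 in Mrc1- and 1.80 in Mrc1+ cells, beside 19.4 in endothelial cells and 2.11 in fibroblasts, and the 4 fibroblast markers to 2.45 and 1.47. Their part in the Col4a4 difference was not tested.

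The other genes of collagen biology were taken from lists, and genes of a list that the matrix does not hold were left aside. The lists were written with earlier results of these data known, so their counts and medians are descriptions only. Of 9 other collagen genes, 4 were listed, and 3 of them were at least 2-fold higher in fibroblasts, as were 20.2% of all genes tested. Col5a1 was at 3.83 in fibroblasts and 0.304 in endothelial cells, 12.6-fold, and Col5a2, its partner in the fibrils of type V collagen, was 3.51-fold higher. Col3a1 is itself part of the fibroblast rule, and Col20a1 was at 0.105 against 0.139. The median log2 ratio of the 4 genes, with Col3a1 among them, was 2.45, beside 0.06 over all genes tested. The count and this median thus rest in part on a rule gene. The log2 ratios of the others were 3.66 for Col5a1, 1.81 for Col5a2 and −0.41 for Col20a1.

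Of 15 genes for making and secreting collagen, 5 were listed, and 0 were at least 2-fold higher in fibroblasts. Colgalt2, which puts galactose on collagen, was at 0.978 in fibroblasts and 2.10 in endothelial cells. Creb3l1, a transcription factor of collagen secretion, was at 0.160 and 0.428, and Ssr2, a subunit of the translocon, at 0.0971 and 0.196. These 3 genes were at least 2-fold higher in endothelial cells, as were 16% of all genes tested, and the list's median log2 ratio was −1.01, beside 0.06 over all genes. Mia3, which loads collagen into export carriers, was at 1.27 and 1.29.

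Of 8 receptor genes, 3 were listed. Ddr2, a collagen-binding tyrosine kinase, was 31.9-fold higher in fibroblasts, and Itga10, the collagen-binding integrin chain of cartilage cells, was 10.2-fold higher. Itgav was at 1.31 in fibroblasts and 1.55 in endothelial cells.

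Of 12 genes of basement membranes, 6 were listed, with 3 at least 2-fold higher in endothelial cells, 1 at least 2-fold higher in fibroblasts and a median log2 ratio of −1.10. Over all genes tested these shares were 16% and 20.2% and the median 0.06. Hmcn1, the gene of a hemicentin, was at 11.9 in endothelial cells and 2.23 in fibroblasts, and Lama5, a laminin chain, at 0.810 and 0.0995. Frem2 was the other gene higher in endothelial cells. Lamb3 was the gene higher in fibroblasts, from 45 and 38 UMIs, and Lamc1, a laminin chain used widely, was at 1.70 in fibroblasts and 1.47 in endothelial cells.

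Of 14 genes of cartilage, 7 were listed and 6 tested. These 6 were at least 2-fold higher in fibroblasts, with a median log2 ratio of 4.56. Of all genes tested, 20.2% passed that fold, and their median was 0.06. The count is a description, since this list too was written with earlier results of these data known. Matn4, a matrilin, was at 0.0851 against 0.00382, and Ucma, a secreted cartilage protein, at 0.0846 against 0.00286. Matn4 was higher still in melanocytes, at 0.434 (0.261 to 0.678), from 19 UMIs. Between the fibroblast subclasses, 5 of 6 were at least 2-fold higher in Prg4/Fmod cells (7.4% of all genes), and of these 5 Prg4 and Fmod are rule genes. The other 3 were Matn4, 14.2-fold (from 137 and 3 UMIs), Ucma, 6.80-fold, and Itga10, 3.74-fold. Prelp was 1.92-fold higher. Snorc, a defining chondrocyte gene, had 1 UMI in fibroblasts and 1 in endothelial cells.

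Likeness was measured as the Pearson correlation of log2(level + 0.01) over the 12 subclasses, among 2262 genes with at least 200 UMIs outside the class rules. These values are descriptions, since all subclasses come from 1 matrix. Their depth differs, from 437835 UMIs in melanocytes to 20608943 in Prox1/Kif26b endothelial cells, so low levels are less certain in some than in others. The genes most like Col6a3 were Col5a1 (0.97), Dnm3os (0.95) and Olfr1033 (0.95), and those most like Col4a3 were Slc43a3 (0.98), Cd34 (0.96) and Gm16083 (0.96). Col4a4 was most like Fmo1 (0.98), Npdc1 (0.95) and Creb3l1 (0.95), and Col9a1 was most like Smg5 (0.93), Ucma (0.92) and Gm14223 (0.92). Among the members, Col4a3 and Col4a4 had a correlation of 0.93 and Col6a3 and Col9a1 of 0.78. With subclasses split by run, giving 24 points, the correlation of Col4a3 with Col4a4 was 0.77 and that of Col6a3 with Col9a1 0.56. Fmo1 stayed at 0.95 and Slc43a3 at 0.96, while Npdc1 was at 0.66, Creb3l1 at 0.70, Smg5 at 0.43 and Ucma at 0.59.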

How the data were processed

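The deposited matrix holds natural log values, which the authors made with the LogNormalize method of Seurat as ln(1 + x), where x is a gene's UMIs scaled to 10000 per cell. The submitters' processing notes name Cell Ranger 7.1.0 and mm10. All values above 0 and all cell totals came out as whole UMIs within 0.02, and cells had 503 to 23127 UMIs, with a median of 15.7% on listed genes. One gene with empty values was left out, and no column was left unused. Since the matrix is 1 sample, no count model was fitted and no p-value is given. Levels, ratios (exact conditional intervals) and shares were computed in Python 3.11.15 with numpy 2.4.6 and scipy 1.17.1, and figures with matplotlib 3.10.9. A class at 0 was set to the floor of 3 counts in counts of genes past 2-fold. Clusters used 1992 variable genes without collagens, 50 components, 15 neighbours and Leiden (resolution 0.5) with igraph 0.11.9, scanpy 1.11.5 and scikit-learn 1.9.0, and leading genes were ranked by fold. Doublets were not called; cells that met more than 1 rule were kept apart. On simulated cells, 200 genes changed 2-fold were recovered at a median of 1.99-fold. Those cells were Poisson draws from the pooled fibroblast profile, without mixed cell types or sorting by markers. The recovery therefore checks the arithmetic only. The named genes are the 6 members, listed genes of collagen biology, and the 3 genes most like each member with 200 UMIs. Members, class rules and lists were chosen with earlier results of these data known.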

Additional observations from a re-analysis of the deposited data

How the results depend on the processing

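With 1 pooled sample, no result had a test. An alternative counts here as unchanged where its value lies within the 95% counting interval of the reported one (for counts of genes, within 1.5 times). For the 12 likeness values it was instead the 95% interval of a correlation over 12 points (Fisher transform). That interval is wide and takes the subclasses as independent, which they are not, and 7 of the 12 count as unchanged by it. Of 84 values under the alternatives, 53 were unchanged by this measure, 30 moved and 1 changed sign. The ratio of fibroblasts over endothelial cells kept its direction under 9 alternatives each for Col6a3 (12.6 to 19.8), Col4a3 (0.593 to 0.727), Col4a4 (0.351 to 0.511), Col9a1 (50.2 to 75) and Col9a3 (1.15 to 4.32). Of these, Col9a3 moved by over 1.5 times, to 4.32 in the second run alone, from 15 UMIs in the 2 classes. That run alone gave 12.6 for Col6a3, 0.727 for Col4a3 and 0.511 for Col4a4, and the first run gave 0.359 for Col4a4. Clusters in place of marker UMIs gave 19.8, 0.701 and 0.408, and UMIs on listed genes as the total gave 15.3, 0.600 and 0.351. A mean over cells gave 14.9 for Col6a3 and 0.593 for Col4a3, and fibroblasts with all 3 marker genes gave 0.403 for Col4a4. The ratio of Prg4/Fmod over Scn7a/Sfrp2 fibroblasts was 1.15 and 1.38 in the first and second run for Col6a3, and 0.382 in the second run for Col4a4. With a minimum of 200 UMIs, 336 genes were at least 2-fold higher in fibroblasts, against 566 at 20 UMIs, since fewer genes were then counted.

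The share of cells in fibroblasts minus that in endothelial cells moved with depth by construction. Without thinning it was 72.7 percentage points for Col6a3, −21.9 for Col4a4 and 7.18 for Col9a1, and at 1000 UMIs it was 32.1, −13.6 and 1.64, and −3.27 for Col4a3. For Col9a3 it was 0.273 at 2000 UMIs and −0.0505 at 1000, so its sign depends on the thinning. No paired analysis was possible because the barcodes carry no replicate number, and leaving out each replicate was not run for the same reason.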

Other observations

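Cells outside the 4 classes held the same genes. In the 403 cells with fibroblast genes and Egfl7 together, the level of Col6a3, per 10000 UMIs and with its counting interval, was 3.33 (3.14 to 3.53) and that of Col4a4 2.01 (1.86 to 2.16), each between the levels of fibroblasts and endothelial cells. Col4a3 was at 1.49 there (1.37 to 1.63), above the endothelial level of 1.38, with intervals that overlap. Col9a1 was at 0.0776 (0.0511 to 0.113). These cells had a median of 8709 UMIs, against 6007 in fibroblasts and 5341 in endothelial cells, and the part of mixed droplets in them was not tested.

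In the 3282 cells that met no rule, with a median of 4350 UMIs, Col6a3 was at 1.95 (1.88 to 2.02), Col4a4 at 1.31 (1.25 to 1.36), Col4a3 at 0.822 (0.777 to 0.868) and Col9a1 at 0.0684 (0.0560 to 0.0826). In the 279 cells that met more than 1 rule, Col6a3 was at 1.52 (1.36 to 1.69) and Col4a4 at 1.57 (1.41 to 1.75). Of all 16384 Col6a3 UMIs, 3050 lay in cells that met no rule.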
